A study of Mus musculus with 2 samples.

Results

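The cells described here passed a gate for B lymphocyte precursors of the bone marrow, the pro-B and pre-B cells: 88 of the 23283 cells called in both libraries together. A called cell had at least 1000 UMIs (unique molecular identifiers, each standing for 1 captured RNA molecule), at least 500 genes and at most 10% of its UMIs in mitochondrially encoded genes. The gate then kept cells with at least 1 UMI of Ebf1 and at least 2 UMIs summed over Vpreb1, Vpreb3 and Igll1, and with 0 UMIs of Ms4a1 and Ighd, which encode surface proteins of later B cells. It kept 21 of 11932 called cells in FMT-young and 67 of 11351 in FMT-aged. Since the gate read these genes, their levels are given as a description only.

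FMT-young is a library of marrow cells from aged C57BL/6J mice that received gut microbiota of young donors by faecal microbiota transplantation (FMT). FMT-aged is the matching library from aged C57BL/6J mice that were given gut microbiota of aged donors. Both libraries hold a sorted mixture of whole marrow, lineage-negative (Lin-) cells and Lin- cKit+ progenitors at 1:1:4, so a share is a share of that mixture and not of marrow. The ages and the number of mice behind a library are not given in the sources used here, and marrow without transplantation was not analysed here.

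With 1 library in each group there is no test of the groups. The intervals are exact 95% intervals (Clopper-Pearson for a share, Poisson for a level, conditional binomial for a log2 ratio of FMT-young over FMT-aged), and they cover counting error only, not the spread between mice, sorts or libraries. For levels and their ratios they also leave out the spread between cells, since UMIs of summed cells were treated as independent. The libraries held 214982156 and 207642851 UMIs. They shared 34 called barcodes, of which 0 were in the gate. A level is the UMIs of a gene per 1000000 UMIs of the summed cells (CPM).

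B lymphocytes are built in the marrow from lymphoid progenitors in steps. Ebf1 and then Pax5 switch on the B-lineage genes, the recombinase encoded by Rag1 and Rag2 joins the segments of the immunoglobulin heavy chain gene, and the terminal transferase encoded by Dntt adds bases at the joints. A finished heavy chain is first shown on the surface with a surrogate light chain, made of the VpreB and lambda 5 proteins encoded by Vpreb1, Vpreb2 and Igll1, and this pre-B receptor drives a burst of division before the light chain gene is rearranged. Vpreb3 encodes a related protein that stays inside the cell and binds new heavy chains.

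The bases upstream of the 3 marker genes of the gate are shown because these genes define the cells. Each run is the 250 bases before the RefSeq start in GRCm38.p6, from 5′ to 3′ on the strand of the gene. Capitals mark every match, on either strand, to the EBF1 core CCCNNGGG, the E-box CAGGTG that E2A proteins bind, or the octamer ATGCAAAT that OCT factors bind. The Vpreb1 run is chr16:16869256-16869505 on the minus strand, the Igll1 run is chr16:16863986-16864235 on the minus strand, and the Vpreb3 run is chr10:75948050-75948299 on the plus strand.
Vpreb1: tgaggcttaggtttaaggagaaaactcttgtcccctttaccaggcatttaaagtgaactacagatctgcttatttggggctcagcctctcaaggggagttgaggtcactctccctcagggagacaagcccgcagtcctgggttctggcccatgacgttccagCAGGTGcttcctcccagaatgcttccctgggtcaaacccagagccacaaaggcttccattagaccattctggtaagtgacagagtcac
Igll1: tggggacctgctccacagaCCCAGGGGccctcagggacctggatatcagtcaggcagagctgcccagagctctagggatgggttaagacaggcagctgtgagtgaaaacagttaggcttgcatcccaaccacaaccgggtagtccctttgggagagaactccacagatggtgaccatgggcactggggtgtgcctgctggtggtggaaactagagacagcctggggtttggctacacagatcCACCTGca
Vpreb3: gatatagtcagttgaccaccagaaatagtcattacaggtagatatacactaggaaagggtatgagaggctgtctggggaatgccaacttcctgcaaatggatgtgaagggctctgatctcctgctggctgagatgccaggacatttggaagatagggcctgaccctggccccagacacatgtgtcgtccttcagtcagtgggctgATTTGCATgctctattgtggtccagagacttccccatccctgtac
The Vpreb1 run held CAGGTG at -88 from the start. The Igll1 run held an EBF1 core at -231 and an E-box, read on the other strand as CACCTG, at -8. The Vpreb3 run held the octamer, read on the other strand as ATTTGCAT, at -45. Of 32851 RefSeq promoters cut to the same length, 11.8% held CCCNNGGG, 17.2% held CAGGTG and 1.60% held ATGCAAAT. A match is a run of letters and not a measured site, and the marrow data hold no measure of binding. The Vpreb1 and Vpreb3 runs lie inside the spans of these genes in the reference annotation, chr16:16868403-16870843 and chr10:75943057-75949657, because that annotation also lists transcripts with earlier starts. Igll1 spans chr16:16860671-16863985, so its run ends next to it.

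The label was checked against genes that the gate had not used, and 41 of the 88 cells went against it. Antibody-secreting plasma cells make large amounts of Jchain, the protein that links IgA and IgM into polymers, and 13 cells of FMT-young and 9 of FMT-aged held at least 100 Jchain UMIs. A further 1 cell of FMT-young and 18 of FMT-aged had at least 1% of their UMIs in 9 neutrophil and granulocyte progenitor genes (Mpo, Elane, Prtn3, Ctsg, S100a8, S100a9, Ltf, Ngp and Camp). The other 47 cells, 7 in FMT-young and 40 in FMT-aged, had neither. These limits were set after the values were seen. They fell in gaps: no gated cell had between 24 and 148 Jchain UMIs, and among cells below the limit the neutrophil genes took at most 0.340% of UMIs in the 47 cells and at least 1.77% in the others. The 3 sets are called Jchain-high, granule-rich, and low-Jchain, low-granule cells. Jchain was read first, so Jchain-high cells past the granule limit were not counted as granule-rich. Those cells had 1.75%, 3.64%, 3.24%, 4.97% and 16.7% of UMIs in the neutrophil genes in FMT-young, and 8.60% in FMT-aged.

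**Figure D1:**
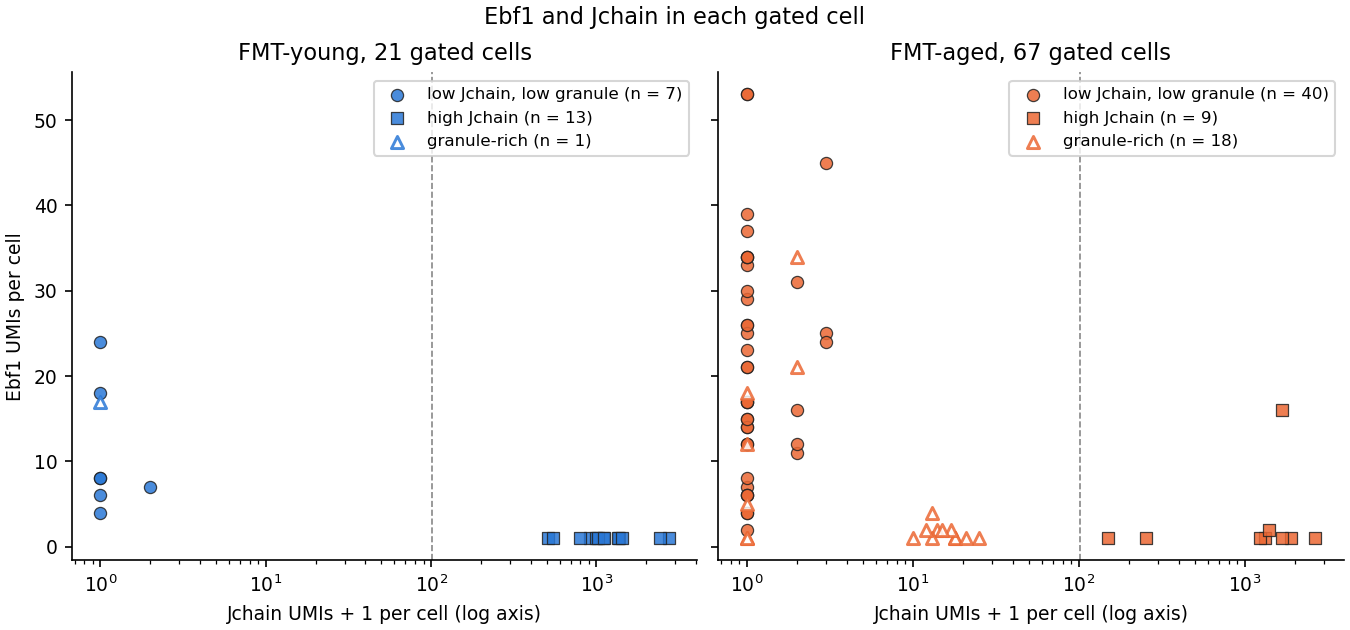
Ebf1 UMIs per cell against Jchain UMIs plus 1 (log axis) for the 21 gated cells of FMT-young and the 67 of FMT-aged, with 1 symbol per cell, shaped by set, and a dashed line at 100 Jchain UMIs. All 13 Jchain-high cells of FMT-young held 1 Ebf1 UMI, while the low-Jchain, low-granule cells held 4 to 24 in FMT-young and 2 to 53 in FMT-aged.

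Most Jchain-high cells were deep cells with 1 Ebf1 UMI, the minimum of the gate. In FMT-young the 13 cells held a median of 21063 UMIs, and every one had exactly 1 Ebf1 UMI. In FMT-aged the 9 cells held a median of 22257 UMIs, and 7 of them had exactly 1, 1 had 2 and 1 had 16. Their marker sum came mostly from Vpreb3, with 69 Vpreb3 UMIs against 3 of Vpreb1 and 0 of Igll1 in FMT-young, and 62 against 3 and 1 in FMT-aged. The cell with 16 Ebf1 UMIs, which the doublet score picked, held 29 of these 62 Vpreb3 UMIs and all of the Vpreb1 and Igll1 UMIs of the FMT-aged set. Kappa light chain genes took 14.8% to 56.4% of their UMIs in FMT-young and 18.1% to 46.2% in FMT-aged. Pax5, which plasma cells switch off, was at 0 UMIs in the 13 and in the 9 cells.

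Most Jchain-high cells in the gate carried the IgA heavy chain. Igha had at least 1000 UMIs in 11 of 13 such cells of FMT-young, at 1494 to 8240 UMIs, and in 7 of 9 of FMT-aged. The remaining cells had at most 20 Igha UMIs in FMT-young. Over all called cells with at least 100 Jchain UMIs, such Igha counts were seen in 58 of 1339 cells in FMT-young and 43 of 831 in FMT-aged. The gate therefore took 19.0% of the Igha-high cells and 0.156% of the other Jchain-high cells in FMT-young, and 16.3% and 0.254% in FMT-aged.

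The granule-rich cells were mixed among themselves. In FMT-aged, 5 of 18 had at least 5 Ebf1 UMIs and held 25163 to 35230 UMIs each, with a median marker sum of 52. The other 13 had 1 to 4 Ebf1 UMIs. Of these, 11 held 3695 to 8120 UMIs, with 9 to 24 Jchain UMIs and 3.23% to 6.43% of UMIs in kappa genes. The 1 granule-rich cell of FMT-young held 17 Ebf1 and 20 Vpreb3 UMIs among 6345, with 20.8% of UMIs in the neutrophil genes. Over all called cells with the same granule content and under 100 Jchain UMIs, 2.03% in FMT-young and 2.43% in FMT-aged had an Ebf1 UMI. A doublet score based on simulated cell pairs picked 6 gated cells of FMT-young and 7 of FMT-aged, of which 4 and 4 were Jchain-high, 1 and 3 granule-rich, and 1 and 0 low-Jchain, low-granule.

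Gated cells were a smaller share of called cells in FMT-young than in FMT-aged. The share was 0.176% (0.109% to 0.269%) in FMT-young and 0.590% (0.458% to 0.749%) in FMT-aged, a log2 ratio of -1.75 (-2.53 to -1.02). The ratio is given for each of the 3 sets, and differences between sets were not tested. Low-Jchain, low-granule cells made up 0.0587% (0.0236% to 0.121%) of called cells in FMT-young and 0.352% (0.252% to 0.480%) in FMT-aged, a 6.01-fold difference and a log2 ratio of -2.59 (-3.99 to -1.41). Granule-rich cells made up 0.00838% and 0.159%, a log2 ratio of -4.24 (-9.62 to -1.58) that rests on 1 cell in FMT-young. The Jchain-high cells of both libraries that also passed the granule limit are not in these shares. Jchain-high cells made up 0.109% and 0.0793%, a log2 ratio of 0.46 whose interval, -0.88 to 1.86, takes in 0.

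**Figure D2:**
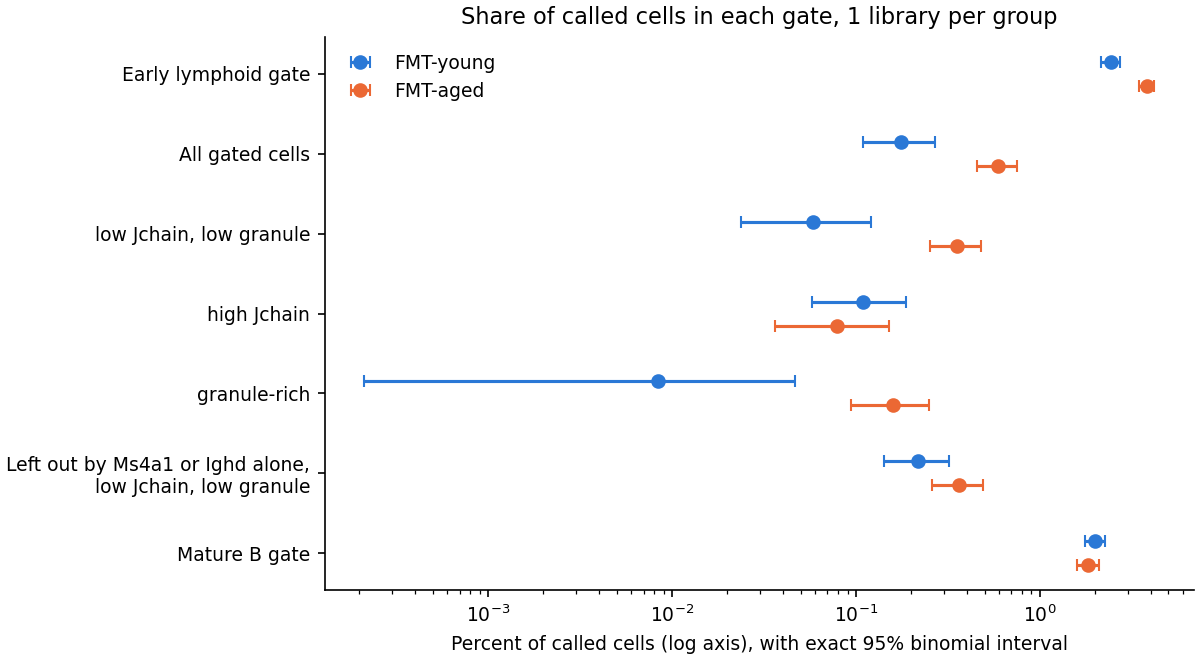
Percent of called cells (log axis) in the gate, its 3 sets and 3 neighbouring gates, for FMT-young and FMT-aged, with exact 95% binomial intervals and 1 library per group. The low-Jchain, low-granule set sits at 0.0587% in FMT-young and 0.352% in FMT-aged, while the mature B gate sits at 2.003% and 1.83%. The early lymphoid and mature B gates were not limited on Jchain or granule genes.

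The shares of cells at neighbouring steps of the lineage are set beside this. A mature B gate (Ms4a1 and Ighd both at least 1 UMI) held 239 cells (2.003%) in FMT-young and 208 (1.83%) in FMT-aged, a log2 ratio of 0.13 (-0.15 to 0.40). An early lymphoid gate (Dntt and Flt3 both at least 1 UMI, with Ebf1, Cd79a and the marker sum at 0) held 289 (2.42%) and 433 (3.81%), a log2 ratio of -0.66 (-0.88 to -0.44). Neither of these gates was limited on Jchain or granule genes, unlike the low-Jchain, low-granule set. With the same limits, the mature B gate held 177 and 170 cells, a log2 ratio of -0.01 (-0.33 to 0.30). The early lymphoid gate then held 267 and 388 cells, a log2 ratio of -0.61 (-0.84 to -0.38). Whether the libraries differ more at the pro-B and pre-B step was not tested, since each group is 1 library.

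The size of the difference moved with the edges of the gate. Among cells that failed on Ms4a1 or Ighd alone, 26 in FMT-young and 41 in FMT-aged were low in Jchain and granule genes, a log2 ratio of -0.73 (-1.50 to 0.01). With these cells added, the counts were 33 and 81 and the log2 ratio was -1.37 (-1.998 to -0.77). Dropping the Ebf1 minimum instead gave 23 and 50 cells and a log2 ratio of -1.19 (-1.97 to -0.45). In the 16 and 10 cells that this adds, Pax5 was at 0 UMIs in both libraries, Cd79a was seen in 1 and 0 cells, and Flt3, the receptor of lymphoid progenitors, in 14 and 9. They also held Mpo, a gene of granulocyte progenitors, in 11 and 10 cells, and Siglech, of plasmacytoid dendritic cells, in 7 and 4. An Mpo UMI was also seen in 52.8% and 49.2% of T cells, which do not make it, so no expression is read from the Mpo counts. Dntt had 134 UMIs in 4 of the added cells of FMT-young and 6 in 3 of FMT-aged, the reverse of the order inside the gate. By themselves these added cells were 0.134% of called cells in FMT-young and 0.0881% in FMT-aged, a log2 ratio of 0.61 (-0.62 to 1.91). With either edge moved, the share of the enlarged set was still lower in FMT-young.

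At the edge of the marker sum, cells with Ebf1 and a sum of 1 numbered 22 in FMT-young, of which 16 were Jchain-high, and 15 in FMT-aged. Cells with a sum of 2, just inside, numbered 3 and 9. At the edge of Ebf1, 13 cells of FMT-young and 15 of FMT-aged had exactly 1 UMI, and 0 of them were low-Jchain, low-granule cells in either library. Cells with 0 Ebf1 UMIs that met the other limits numbered 59 and 73. Among shallower barcodes of 500 or more but under 1000 UMIs, 0 of 1053 in FMT-young and 1 of 276 in FMT-aged met the same marker rule.

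The low-Jchain, low-granule cells carried B-lineage genes that the gate had not read. Genes were ranked against all other called cells by the lower of their 2 library ratios. The first 15 were Vpreb2, Igll1, Gfra2, Rag1, Vpreb3, Vpreb1, Cecr2, Akap12, Cplx2, 1700027J07Rik, Ebf1, Rsph9, Gm37065, Lef1 and Bfsp2. Vpreb1, Vpreb3, Igll1 and Ebf1 stand there because the gate chose on them. Rag1 and Lef1, a factor of dividing lymphocyte precursors, were not used by the gate. In FMT-young Rag1, 1700027J07Rik and Gm37065 rested on 2 UMIs each, Rsph9 on 3, and Gfra2 and Akap12 on 4 each. For all 88 cells together, the same ranking held Igha, Jchain, Derl3, Mzb1 and Slamf7, genes of plasma cells, among its 15.

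Most lists of markers of other cell types had few UMIs in these 47 cells. The mature B list had 1 of 6 markers seen in FMT-young (2 UMIs) and 2 of 6 in FMT-aged (8 UMIs), with Fcer2a and Cr2 at 0 in both beside the 2 genes the gate sets to 0. The T and NK cell list had 2 of 7 markers with 2 UMIs and 2 of 7 with 11, and the erythroid list 0 of 5 and 2 of 5 with 7 UMIs. The plasma cell list had 5 of 7 markers seen with 16 UMIs in FMT-young, and 5 of 7 with 161 UMIs in FMT-aged, with Prdm1 and Tnfrsf17 at 0 in both. The neutrophil list had 7 of 9 with 21 UMIs and 8 of 9 with 177, from 0% to 0.340% of a cell in FMT-young and 0% to 0.206% in FMT-aged. The monocyte and macrophage list had 2 of 7 with 2 UMIs and 4 of 7 with 39, and the stem cell list 2 of 6 with 3 UMIs and 4 of 6 with 15. The plasmacytoid dendritic list, which holds Ly6d, had 1 of 5 with 26 UMIs and 2 of 5 with 112, with Siglech, Ccr9 and Klk1 at 0 in both. The lymphoid progenitor list, which holds Dntt, had 2 of 5 with 5 UMIs and 4 of 5 with 274. Without cells that held at least 3 UMIs of neutrophil, plasma, T and NK or erythroid markers, 1 cell of FMT-young and 5 of FMT-aged remained, a log2 ratio of -2.39 (-7.96 to 0.77) that takes in 0. In T cells, which do not make them, an Mpo UMI was seen in 52.8% of cells in FMT-young and 49.2% in FMT-aged. A Jchain UMI was seen in 29.8% and 21.2% of the same T cells. No expression of other lineages is therefore read from the limit of 3 UMIs. The part of the other lists was not tested.

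Depth differed between the 2 sets of low-Jchain, low-granule cells and limits what can be read from FMT-young. The 7 cells of FMT-young held 14172, 7371, 2714, 1678, 1425, 1177 and 1150 UMIs, and those of FMT-aged 1181 to 37044 with a median of 5162.5. The FMT-young cells summed to 29687 UMIs, of which the first and second cell gave 72.6%, and the FMT-aged cells to 352776. A gene with 0 UMIs in FMT-young could still have a level of up to 101 CPM by 3 counts, and the exact interval reaches 124 CPM.

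For 4 of 4 surrogate light chain genes the interval of the ratio took in 0 in the low-Jchain, low-granule cells. The gate required at least 2 UMIs over Vpreb1, Vpreb3 and Igll1, so their levels and ratios are a description only. In shallow cells that minimum alone sets a high level, so even levels are not read as a result. Vpreb3 had 17, 18, 6, 6, 2, 2 and 5 UMIs in the 7 cells of FMT-young, and 2 to 40 with a median of 12 in FMT-aged. Its level was 1886 CPM and 1624 CPM, a log2 ratio of 0.22 (-0.21 to 0.61). The cells of FMT-young lie within the range of FMT-aged, where 14 of 40 cells held more than the highest of FMT-young. Vpreb1 had 20 and 11 UMIs in the first and second cell of FMT-young and 0 in the other 5, while 27 of 40 cells of FMT-aged held it, up to 41 UMIs. Its level was 1044 CPM (710 to 1482) and 1222 CPM (1109 to 1343), a log2 ratio of -0.23 (-0.80 to 0.30).

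Igll1 encodes the lambda 5 part of the surrogate light chain and was mostly seen in the cells that held Vpreb1. It had 12, 4 and 3 UMIs in the 3 deepest cells of FMT-young and 0 in the other 4, and 26 of 40 cells of FMT-aged held up to 39 UMIs. The level was 640 CPM against 788 CPM, a log2 ratio of -0.30 (-1.05 to 0.37). Vpreb1 and Igll1 were both seen in 2 of 7 and 25 of 40 cells, and neither in 4 and 12. Vpreb2, a near copy of Vpreb1, had 5 and 114 UMIs, a log2 ratio of -0.94 (-2.59 to 0.32). The transcripts of Vpreb1 and Vpreb2 are 86.5% identical over 773 aligned positions, with a run of 196 identical bases, so the split of UMIs between them is uncertain.

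The ratio of Dntt lay farthest from 0 of the 5 measured recombination genes, and Rag1 and Rag2 had 2 UMIs each in FMT-young. Dntt had 1 UMI in 1 of 7 cells of FMT-young and 208 UMIs in 20 of 40 cells of FMT-aged, with up to 32 in a cell. The level was 33.7 CPM (0.853 to 188) against 590 CPM (512 to 675), a log2 ratio of -4.13 (-9.44 to -1.64). The 2 libraries overlap only at 0 to 1 UMI. Rag1 had 2 UMIs in FMT-young and 30 in FMT-aged, a log2 ratio of -0.34 (-3.45 to 1.64), and Rag2 had 2 and 16. In FMT-aged Rag1 was seen in 11 of 40 cells, at up to 6 UMIs, and Rag2 in 14, at up to 2. H2afx and Hmgb2 of the list also had intervals below 0: H2afx, a histone variant marked at DNA breaks, had 5 and 183 UMIs and a log2 ratio of -1.62 (-3.26 to -0.37), and Hmgb2, a chromatin protein, had a log2 ratio of -0.36 (-0.70 to -0.03). Dntt was also among the marker genes named for the cell type, and in FMT-young it was present in the second cell alone.

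Cd79a and Cd79b encode the signalling chains of the pre-B receptor, and each was seen in 6 of 7 cells of FMT-young. Cd79a had 5, 9, 5, 10, 7, 0 and 6 UMIs in the 7 cells of FMT-young and was seen in 39 of 40 cells of FMT-aged, up to 33 UMIs. The level was 1415 CPM and 1304 CPM, a log2 ratio of 0.12 (-0.37 to 0.58). Its partner Cd79b had 741 and 462 CPM, a log2 ratio of 0.68 (-0.03 to 1.33). Blnk, the adaptor below the receptor, had 7 UMIs in 4 cells and 112 in 31 cells, a log2 ratio of -0.43 (-1.78 to 0.66). All 3 intervals take in 0.

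Of 30 genes in the list of receptor signalling, 9 could be measured (at least 50 UMIs over both libraries). Of these 9, 2 were at least 1.5-fold higher in FMT-young and 3 at least 1.5-fold lower, with a median log2 ratio of -0.34. Over all 1163 measured genes in these cells, 13.7% were higher by that fold and 23.7% lower, with a median of -0.09. FMT-aged gave most of the UMIs, so a gene could pass the minimum on its FMT-aged count alone. Of the 4 surrogate light chain genes, 0 were higher and 1 lower by 1.5-fold, and of 5 measured recombination genes 0 were higher and 2 lower. These shares carry no test.

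Ebf1 had 24, 18, 4, 7, 8, 6 and 8 UMIs in the cells of FMT-young, and 2 to 53 with a median of 19 in FMT-aged. The level was 2526 CPM and 2432 CPM, a log2 ratio of 0.05 (-0.31 to 0.40). The gate required an Ebf1 UMI, so this ratio is a description only. Pax5, the factor that commits cells to the lineage, had 13 UMIs in 3 cells of FMT-young, of which 10 were in the first cell, and 90 UMIs in 31 cells of FMT-aged. Its log2 ratio was 0.78 (-0.18 to 1.63). Tcf3, which encodes the E2A proteins, had a log2 ratio of 0.72 (-0.24 to 1.56). None of these 3 intervals lies on 1 side of 0.

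Sox4, Bach2 and Lef1 had higher levels in the summed FMT-young cells. Sox4, needed for survival of pro-B cells, had 4, 5, 2, 6, 8, 7 and 8 UMIs in the 7 cells and 0 to 23 with a median of 4 in FMT-aged, where 35 of 40 cells held it. Its level was 1347 CPM (963 to 1835) against 587 CPM (510 to 672), a log2 ratio of 1.20 (0.67 to 1.69). Of the 40 Sox4 UMIs of FMT-young, 22 were in 3 cells of 1150 to 1678 UMIs. Cells of that kind, described below as other cells, gave 4253 of 29687 UMIs in FMT-young and 14635 of 352776 in FMT-aged. The UMIs per cell overlap, while the 5 shallow cells of FMT-young, none above 2714 UMIs in all, reached 2 to 8 UMIs of it. Bach2, a repressor in the pre-B checkpoint, had 15 UMIs in 6 of 7 cells and 64 in 25 of 40, a log2 ratio of 1.48 (0.56 to 2.31). Lef1 had 13 UMIs in the first and second cell of FMT-young alone and 75 in 24 cells of FMT-aged, a log2 ratio of 1.04 (0.07 to 1.90).

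In the list of B-lineage factors, 7 of 16 measured genes were at least 1.5-fold higher in FMT-young and 3 at least 1.5-fold lower, with a median log2 ratio of 0.51. Over all 1163 measured genes, 13.7% were higher and 23.7% lower. Tcf4 and Irf8 were among the lower ones, at -1.24 (-3.54 to 0.36) and -1.06 (-2.96 to 0.34), and 41 of the 99 Irf8 UMIs of FMT-aged were in 1 cell. Myb had 640 and 505 CPM, a log2 ratio of 0.34 (-0.42 to 1.03). Of 32 genes in the list, 16 had under 50 UMIs and were not measured.

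Interleukin 7 is the main growth factor of these cells in mice. Its receptor chain Il7r had 3 UMIs in 1 cell of FMT-young and 89 UMIs in 30 of 40 cells of FMT-aged, with levels of 101 CPM (20.8 to 295) and 252 CPM (203 to 310). The log2 ratio was -1.32 (-3.62 to 0.27), which takes in 0. Ccnd2, a cyclin of early cycle entry, had 4 UMIs in 1 cell and 136 UMIs in 20 cells, a log2 ratio of -1.52 (-3.41 to -0.13), and 42 of the 136 UMIs were in 1 cell. Ccnd3, the cyclin that pre-B cells depend on, had 505 and 524 CPM, a log2 ratio of -0.05 (-0.92 to 0.71). Mcl1, a survival factor, had 371 and 162 CPM, a log2 ratio of 1.20 (0.12 to 2.14). Of 6 measured genes in this list, 2 were higher and 2 lower by 1.5-fold, with a median log2 ratio of -0.11. The shares over all 1163 measured genes were 13.7% higher and 23.7% lower.

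**Figure D3:**
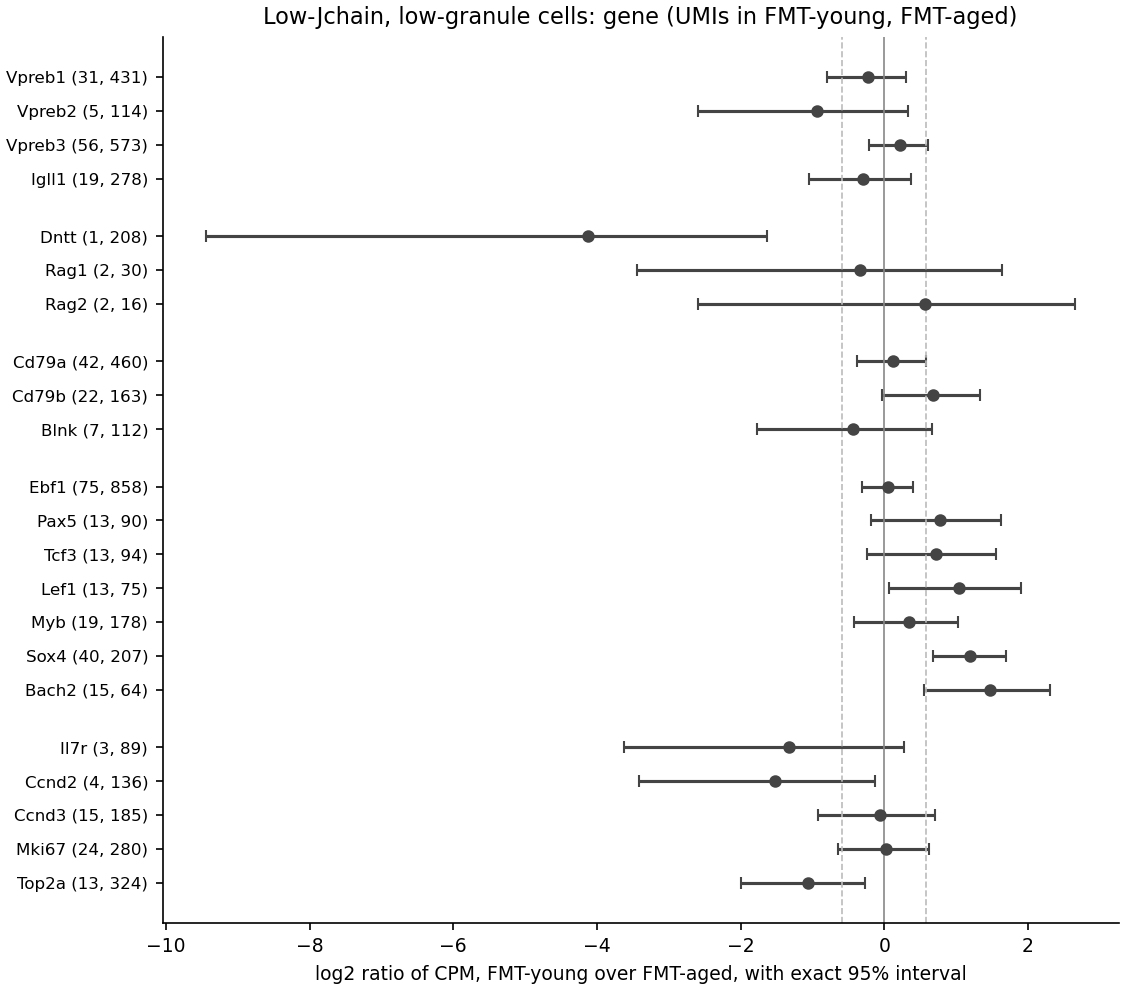
Log2 ratio of CPM, FMT-young over FMT-aged, in the 7 and 40 low-Jchain, low-granule cells for 22 genes grouped by role, with exact 95% intervals of counting error, UMIs of both libraries in brackets and dashed lines at 1.5-fold. Dntt (1 and 208 UMIs) lies at -4.13 and Sox4 (40 and 207 UMIs) at 1.20. Ebf1, Vpreb1, Vpreb3, Igll1 and Cd79a lie from -0.30 (Igll1) to 0.22 (Vpreb3), and the gate read all of these but Cd79a.

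Genes of DNA synthesis and of mitosis are given apart. In the S phase list, 7 of 17 measured genes were at least 1.5-fold higher in FMT-young and 1 lower, with a median log2 ratio of 0.15. For 6 of these 7 genes 1 cell gave most of the FMT-young UMIs: 11 of 15 for Uhrf1, 11 of 13 for Nasp, 8 of 11 for Cdca7, 7 of 8 for Mcm2, 5 of 6 for Tipin and 5 of 9 for Usp1. In the list of G2 and mitosis, 1 of 27 was higher and 16 lower, with a median of -1.07. Beside both lists, 13.7% of all 1163 measured genes were higher and 23.7% lower. Mki67, a mark of cycling cells, had 24 UMIs in 4 of 7 cells and 280 in 27 of 40, a log2 ratio of 0.03 (-0.64 to 0.63). Top2a, which untangles chromosomes, had 438 and 918 CPM, a log2 ratio of -1.07 (-1.99 to -0.27). Birc5 and Ube2c, genes of late mitosis, had 1 against 137 UMIs and 3 against 172, with log2 ratios of -3.53 (-8.84 to -1.02) and -2.27 (-4.56 to -0.70).

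Immediate early genes were higher in FMT-young in these cells. Of 15 measured genes, 10 were at least 1.5-fold higher and 0 lower, with a median log2 ratio of 0.95. For this and the lists below, the shares over all 1163 measured genes were 13.7% higher and 23.7% lower. Klf2, a factor of quiescent lymphocytes, had 50 UMIs in 6 of 7 cells and 95 in 21 of 40, with levels of 1684 and 269 CPM and a log2 ratio of 2.64 (2.12 to 3.15). Jun had 1819 and 944 CPM, a log2 ratio of 0.95 (0.50 to 1.36). The same genes were higher in FMT-young in the neighbouring gates: Klf2 by 2.55 on the log2 scale in the early lymphoid gate and 1.25 in the mature B gate, and Jun by 0.85 and 1.01. Other lists were closer to even: heat shock had 4 of 12 higher and 1 lower (median 0.14), interferon response 0 of 4 and 1 (0.05), and glycolysis 0 of 7 and 3 (-0.40). Whether these differences vary between gates was not tested.

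Immunoglobulin transcripts in these cells have to be read against free RNA. Igkc had 2526 CPM in FMT-young and 808 CPM in FMT-aged, a log2 ratio of 1.64 (1.26 to 2.02), and Ighm had 4143 and 2154 CPM, a log2 ratio of 0.94 (0.66 to 1.22). In barcodes with under 100 UMIs, which hold free RNA, Igkc was at 53117 CPM in FMT-young and 28080 in FMT-aged, and Ighm at 30809 and 14109. A UMI of Igkc was seen in 98.6% of 709 T cells of FMT-young and in 90.7% of 1048 of FMT-aged, cells that do not make it, at median depths of 3636 and 3297.5 UMIs. An Ighm UMI was seen in 95.1% and 77.2% of the same T cells. An Igkc UMI was seen in 85.7% of the low-Jchain, low-granule cells of FMT-young and in 97.5% of those of FMT-aged, at median depths of 1678 and 5162.5 UMIs, and no expression is read from these shares. Ebf1 had a UMI in 0.423% and 0.286% of the same T cells, and Vpreb3 in 0.141% and 0.286%.

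The 47 cells fell into 3 groups by Dntt and by 12 genes of dividing cells. A cell was called Dntt-positive with at least 1 Dntt UMI, dividing without Dntt with at least 3 UMIs over the 12 genes, and otherwise other. FMT-young had 1, 3 and 3 such cells and FMT-aged 20, 13 and 7. The Dntt-positive share was 14.3% (0.361% to 57.9%) and 50% (33.8% to 66.2%). Depth enters these calls: in FMT-aged the median depth was 8546 UMIs in Dntt-positive cells, 4065 in dividing cells and 1816 in the others. After thinning each cell to 1000 UMIs, the counts were 0, 2 and 5 in FMT-young and 13, 13 and 14 in FMT-aged.

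The Dntt-positive cells of FMT-aged held the surrogate light chain genes most often. Vpreb1 was seen in 19 of 20 of them at 1503 CPM, in 8 of 13 dividing cells without Dntt at 825 CPM (666 to 1009), and in 0 of 7 other cells. Igll1 was seen in 19, 7 and 0 of the same cells, at 883, 702 and 0 CPM. A count of 0 in the 7 other cells allows up to 205 CPM by 3 counts and 252 CPM by the exact interval, both below the levels in the other groups. Lef1, at 241 and 184 CPM in the first 2 groups, was also at 0 in the others, which at this depth does not set them apart. Rag1 was seen in 8 of 20 Dntt-positive, 0 of 13 dividing and 3 of 7 other cells.

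The other cells of FMT-aged had higher levels per UMI of several genes of the B lineage. Vpreb3 was at 4100 CPM (3129 to 5277), against 1494 in Dntt-positive and 1562 in dividing cells. The other cells had no Vpreb1 or Igll1 UMI, so they could pass the gate only on Vpreb3. At their low depth that needs a high level of it, so the Vpreb3 level is a description only. Cd79b was at 2665 CPM against 361 and 377, and Sox4 at 3143 against 495 and 439. Pax5 was at 1025 CPM (574 to 1690) against 219 and 228, and Spib, a factor of later B cells, at 478 CPM against 17.8 and 79.0. Ly6d, a surface protein that first marks B-biased lymphoid progenitors, was at 2597 CPM against 241 and 87.7. These cells held 1181 to 3627 UMIs each, fewer than most of the others, and Mki67 and Top2a were at 0 in all 7, where the definition of the group allows fewer than 3 UMIs over the 12 genes.

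**Figure D4:**
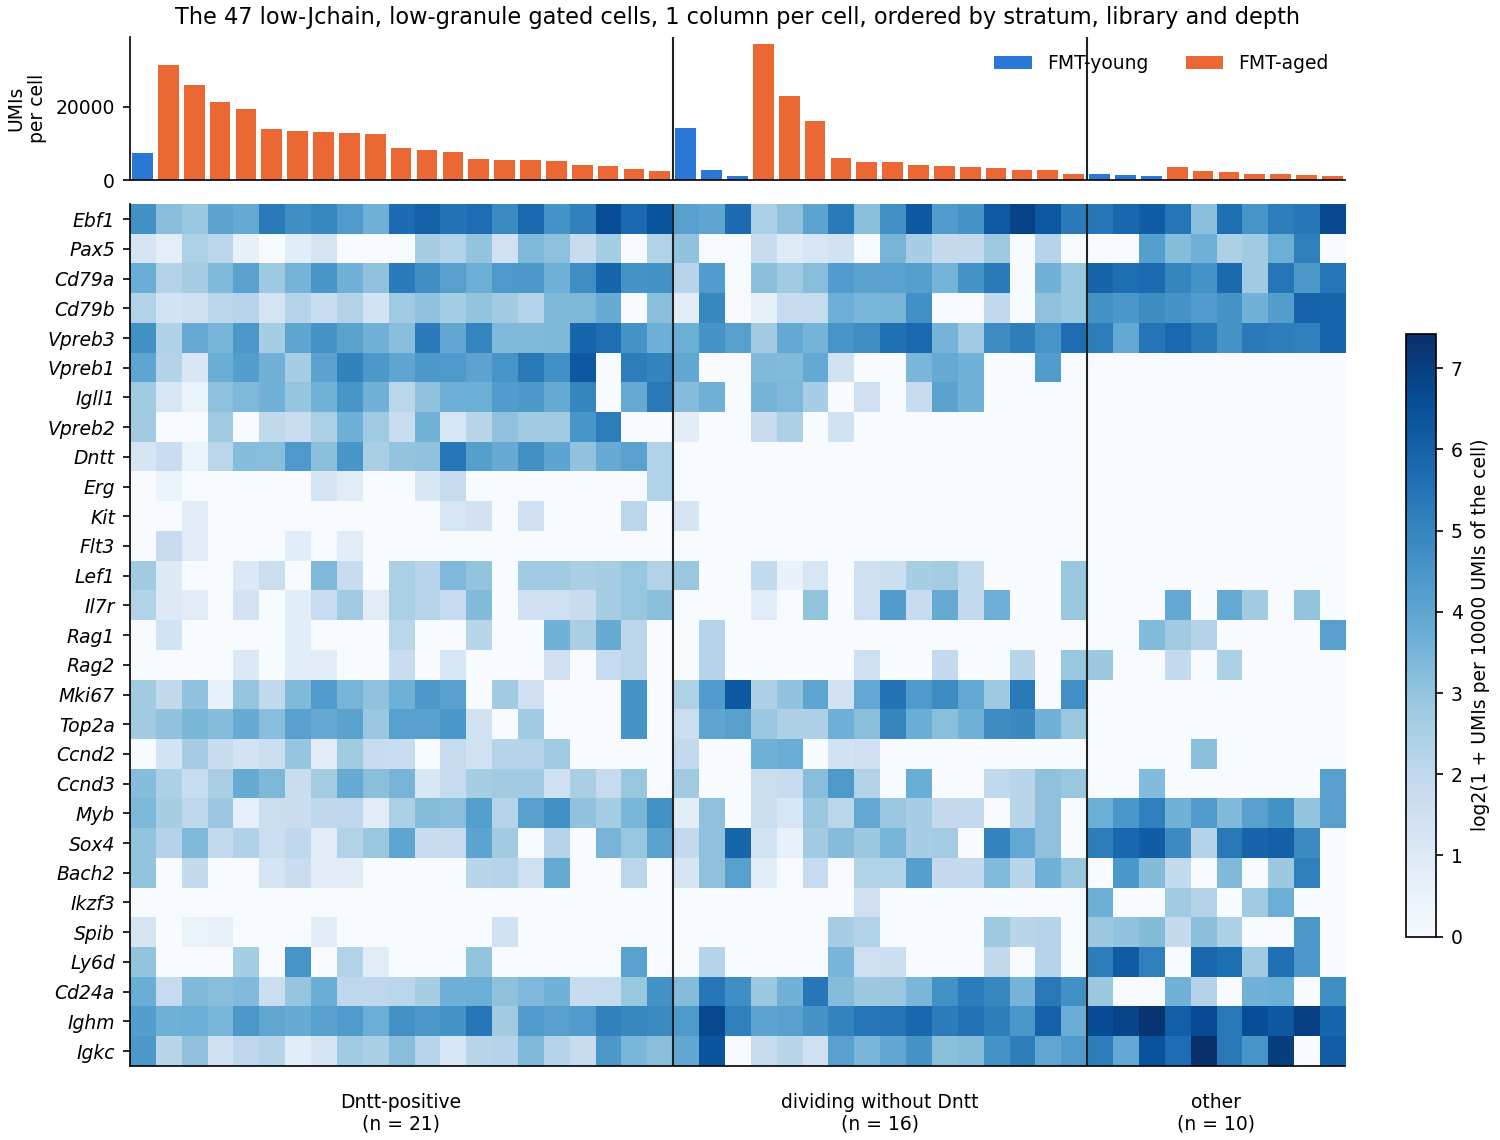
Upper panel, UMIs per cell; lower panel, log2(1 + UMIs per 10000 UMIs of the cell) for 29 genes in the 47 low-Jchain, low-granule cells, with 1 column per cell, ordered by group (Dntt-positive, n = 21; dividing without Dntt, n = 16; other, n = 10), library and depth. Vpreb1 and Igll1 fill most Dntt-positive columns and are blank in all 10 columns of the last group, where Cd79b is dark in all and Sox4 in most.

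The 7 cells of FMT-young spanned these groups. The deepest, with 14172 UMIs, was a dividing cell with 20 Vpreb1, 12 Igll1, 10 Pax5 and 9 Lef1 UMIs. The second, with 7371 UMIs, held the only Dntt UMI and all 3 Il7r UMIs, with 11 Vpreb1 and 4 Igll1 UMIs. The third, with 2714 UMIs, was a dividing cell with 3 Igll1, 1 Rag1 and 1 Rag2 UMIs, and it is the 1 of the 7 that the doublet score picked. The sixth, with 1177 UMIs, had 9 Mki67 and 7 Sox4 UMIs and no Cd79a or Cd79b.

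The remaining 3 cells of FMT-young, of 1150 to 1678 UMIs, formed its group of other cells. Summed, they held 5408 CPM of Cd79a, 5173 of Sox4, 4703 of Ly6d and 3057 of Vpreb3. They passed the gate on Vpreb3 alone, so its level is a description only. Vpreb1, Igll1, Lef1 and Mki67 were at 0 UMIs in them, which allows up to 705 CPM by 3 counts and 867 CPM by the exact interval. Il2ra, the CD25 surface marker of small pre-B cells, was seen in 2 of the 3, at 1 UMI each, and in 2 of 40 cells of FMT-aged. The 7 other cells of FMT-aged were likewise without Vpreb1, Igll1, Lef1 and Mki67 UMIs. The 3 cells of FMT-young gave 22 of the 40 Sox4 UMIs and 20 of the 26 Ly6d UMIs of its low-Jchain, low-granule cells. Sox4 was at 5173 CPM in FMT-young against 3143 in FMT-aged in the other cells. In Dntt-positive cells Sox4 was at 678 against 495 CPM, and in dividing cells without Dntt at 720 against 439. The part of the mix of groups in the summed ratios was not tested.

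The low-Jchain, low-granule cells were set beside the gates before and after them in the lineage. Those gates were not limited on Jchain or granule genes. Dntt, which the early lymphoid gate required, had 400 CPM (FMT-young) and 552 CPM (FMT-aged) in that gate, and 13.9 and 9.01 CPM in the mature B gate. In the early lymphoid gate its log2 ratio was -0.47 (-0.54 to -0.39), against -4.13 (-9.44 to -1.64) in the low-Jchain, low-granule cells. Il7r was at 35.4 and 32.5 CPM in the early lymphoid gate and at 6.79 and 3.71 in the mature B gate, against 101 and 252 in the low-Jchain, low-granule cells. Pax5 was at 0 and 1 UMI in the early lymphoid gate and at 83.6 and 110 CPM in the mature B gate. Cd74, the invariant chain of MHC class II, was at 67.4 and 62.4 CPM in the 47 cells, against 281 and 318 in the early lymphoid gate and 3205 and 5024 in the mature B gate.

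Sox4 and Igkc were higher in FMT-young in all 3 gates, as Igkc was in free RNA, while Ly6d and Top2a changed sign between gates. The log2 ratios of Sox4 were 0.50 (0.43 to 0.56) in the early lymphoid gate and 0.55 (0.27 to 0.83) in the mature B gate, beside 1.20 in the low-Jchain, low-granule cells. Igkc had 0.86 and 1.61, beside 1.64. Ly6d had 1.49 (1.34 to 1.63) and -0.39 (-0.48 to -0.30), beside 1.60 (0.92 to 2.23). Top2a had 0.15 (0.06 to 0.23) and -0.76 (-1.003 to -0.51), beside -1.07. The gates share the 2 libraries, and the differences between gates were not tested. Jchain-high and granule-rich cells were left in the early lymphoid and mature B gates.

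**Figure D5:**
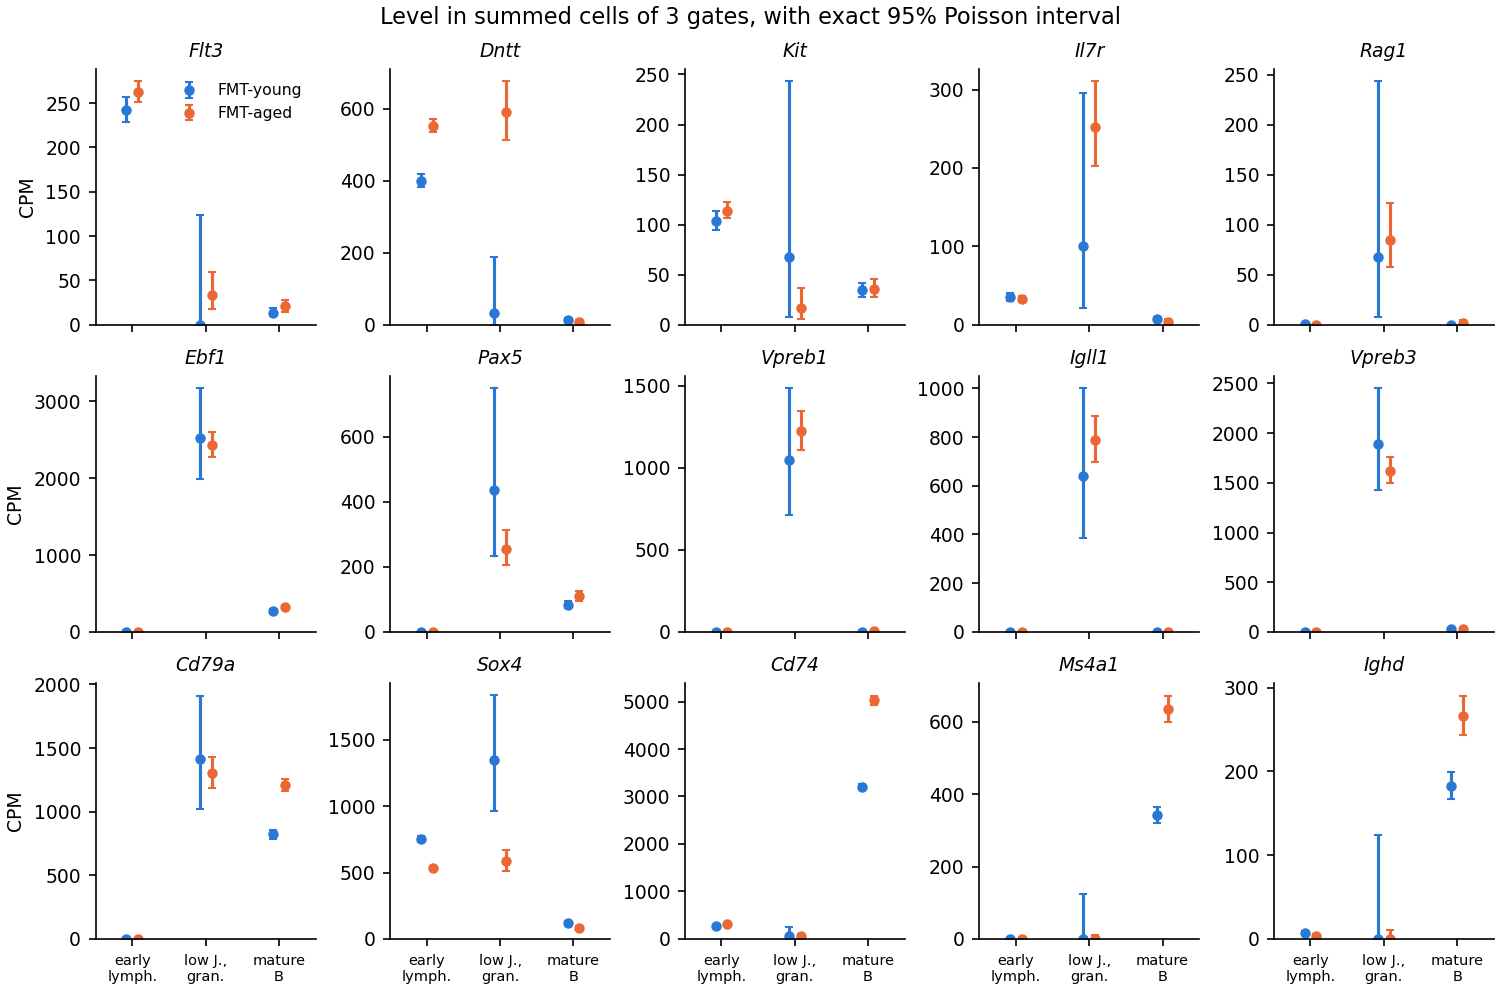
CPM with exact 95% Poisson intervals of 15 genes in the summed cells of the early lymphoid gate, the low-Jchain, low-granule cells and the mature B gate, for FMT-young and FMT-aged (1 library each, axes from 0). The early lymphoid and mature B gates were not limited on Jchain or granule genes. In FMT-aged Il7r is highest in the middle group (252 CPM), while in both libraries Cd74 is highest in the mature B gate (3205 and 5024 CPM) and Flt3 in the early lymphoid gate (243 and 262 CPM).

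Over all 88 gated cells, levels were compared between different mixes of the 3 sets, with 13 of 21 cells Jchain-high in FMT-young and 9 of 67 in FMT-aged. Of 2835 genes measured, 3.56% were at least 1.5-fold higher in FMT-young and 69.7% at least 1.5-fold lower, with a median log2 ratio of -0.89. Immunoglobulin genes took 41.6% of all UMIs in the gated cells of FMT-young and 13.7% in FMT-aged. Of the surrogate light chain genes 4 of 4 were lower by 1.5-fold, of the B-lineage factors 18 of 26, of receptor signalling 15 of 19, of recombination 5 of 5, of interleukin 7 signalling 8 of 12 and of the G2 and mitosis list 34 of 34. The immediate early list had 12 of 20 higher and 1 lower.

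Many of the genes named over all 88 cells were counted mainly in 1 of the 3 sets. Jchain (16275 and 12382 UMIs, log2 ratio 1.33) and Xbp1, the factor of antibody secretion (345 and 217 UMIs, 1.61), were in Jchain-high cells, which held 16274 of the 16275 Jchain UMIs and 343 of the 345 Xbp1 UMIs of FMT-young. Ly6a (1.54), Fam214a (1.75), Slpi (1.53), Kctd12 (1.81), Neat1 (1.46) and Malat1 (1.23) were in FMT-young also counted mainly there. Within the low-Jchain, low-granule cells the ratios of Xbp1, Slpi and Neat1 were -0.24, -1.56 and -1.04. Single cells decided others: Ccl5, a chemokine of T and NK cells (56 and 15 UMIs), had 98.2% and 100% of its UMIs in 1 cell of each library, and Retnlg (253 and 129 UMIs) had 249 of 253 in the granule-rich cell of FMT-young. S100a8 and S100a9, alarmins of neutrophils, had log2 ratios of 1.74 and 1.75, with 56.7% and 60.8% of the FMT-young UMIs in 1 Jchain-high cell.

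The genes lower in FMT-young included the surrogate light chain and other precursor genes. Dntt (2 and 242 UMIs, log2 ratio -5.98), Vpreb1 (34 and 560, -3.10), Igll1 (19 and 340, -3.22), Vpreb2 (5 and 120, -3.65), Cenpa (7 and 167, -3.64), Hmmr (2 and 65, -4.08) and Crip1 (68 and 917, -2.81) were counted mainly in the low-Jchain, low-granule cells of FMT-aged. Fabp5 (1 and 57, -4.89), Cd34 (1 and 51, -4.73), Tmem108 (1 and 50, -4.70), Ebf1 (105 and 993, -2.30), Zeb2 (20 and 184, -2.26), Hmgb1 (293 and 1852, -1.72), Il7r (9 and 103, -2.58), Ccnd3 (34 and 252, -1.95) and Blnk (24 and 140, -1.60) went the same way. Ltf, a neutrophil granule gene, had 1 and 165 UMIs, of which 141 were in the Jchain-high cells of FMT-aged. Pbld1 had 0 UMIs in FMT-young and 50 in FMT-aged, with 48 of the 50 in granule-rich cells and 56.0% in 1 cell. Within the low-Jchain, low-granule cells the ratios of Vpreb1, Igll1 and Ccnd3 were -0.23, -0.30 and -0.05, and those of Ebf1 and Hmgb1 were 0.05 and 0.14.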

How the data were processed

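Single-cell RNA libraries of mouse marrow were made with 10x Genomics 3′ chemistry, per the labels, and the authors deposited UMI counts per gene and barcode; the gene and barcode lists hold names only. Counting used Cell Ranger 3.1.0, per the file headers, on mm10, per the submitters' processing notes. How reads that fit several genes were treated is not given in the sources used here. Each deposited matrix lists 6794880 barcodes, empty ones included, so cells were called as described in the report. The libraries gave 214982156 and 207642851 UMIs.

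Counts of a set of cells were summed per library and divided by their total (CPM). With 1 library per group no p-value was computed. Intervals are exact at 95% and cover counting error only. A gene was measured with at least 50 UMIs over both libraries, and called higher or lower past 1.5-fold. For ratios, 0.5 was added to both counts only where either count was 0. Doublets were scored against simulated pairs (30 principal components, 2 pairs per cell); 1139 (9.55%) and 1031 (9.08%) called cells were picked, and removal was an alternative. Python 3.11.15, numpy 2.4.6, scipy 1.17.1, pandas 2.3.3, scikit-learn 1.9.0 and edgeR 4.0.16 (TMM scaling only) were used. Interval coverage was tested only on simulated independent counts, the model the intervals assume, so it does not bear on the spread between cells. Upstream bases came from RefSeq promoters and gene spans from the reference annotation of the same build.

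Genes named over all gated cells were taken from the 12 in each direction whose interval bound nearest 0 lay farthest from 0 (at least 50 CPM in the higher library), without immunoglobulin, ribosomal, mitochondrial and unnamed genes, and from the leading genes of the B-cell lists by the same bound, of which 1 is not reported here. Other genes were named as cell type markers, as list members or after their values were seen. The gate, its members and all lists were chosen with earlier results of these data known. Alternatives were other limits on UMIs, mitochondrial share, markers and Ebf1, doublet removal, thinning, free RNA subtraction, other scalings and other gene minimums.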

Additional observations from a re-analysis of the deposited data

How the results depend on the processing

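No paired analysis was possible because each group has 1 library and the labels give no shared replicate numbers. Depth was a limit: 7 low-Jchain, low-granule cells of FMT-young held 29687 UMIs. Ratios resting on under 10 UMIs in the 2 libraries together were not given.

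Values are FMT-young over FMT-aged for all gated cells unless stated. The share of gated cells in FMT-young was 0.0670% with at least 2 Ebf1 UMIs (log2 ratio -2.77). Keeping only low-Jchain, low-granule cells, an alternative chosen after seeing the data, gave 0.0587% and 0.352% (-2.59). Without cells with at least 3 UMIs of neutrophil, plasma, T and NK or erythroid markers the shares were 0.00838% and 0.0440%, from 1 and 5 cells. Within the low-Jchain, low-granule cells the FMT-young share was 0.0188% at no more than 5% mitochondrial UMIs. It was 0.193% without the Ebf1 minimum (log2 ratio -1.19), and 0.277% against 0.714% without the Ms4a1 and Ighd limit (-1.37). The log2 ratio of both shares stayed below 0 under each alternative given a value.

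The numbers of genes at least 1.5-fold higher and lower, 101 and 1975, became 333 and 498 with at least 2 Ebf1 UMIs, 159 and 276 in low-Jchain, low-granule cells, 255 and 920 without immunoglobulin UMIs in the total, 506 and 491 with TMM scaling, 434 and 5245 with a minimum of 10 UMIs per gene, 43 and 436 with 200, and 3 and 9 without cells holding other markers. Over all gated cells, Jchain-high and granule-rich ones included, they became 62 and 718 in Dntt-positive cells (2 in FMT-young, 29 in FMT-aged). They became 19 and 200 in cells neither Dntt-positive nor dividing (11 and 15 cells), and 734 were lower in dividing cells without Dntt (8 and 23 cells). Of the 2 Dntt-positive cells of FMT-young, 1 was Jchain-high and held 19289 UMIs. The higher count was 202 with the mean over cells and 262 after thinning to 2000 UMIs. The cause was not tested, beyond the smaller number of genes or cells that some settings leave.

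Directions turned as follows. With at least 2 Ebf1 UMIs the list medians were 0.53 for receptor signalling, 0.85 for B-lineage factors, 0.51 for interleukin 7 signalling, 0.043 for niche and surface genes, 0.94 for apoptosis and 0.18 for S phase. The gene ratios were -1.13 for Xbp1, -7.58 for Jchain, -3.61 for Ly6a, -0.91 for Fam214a, 0.63 for Ebf1, 0.19 for Zeb2, 0.28 for Hmgb1, 0.53 for Il7r and 0.41 for Ccnd3. In low-Jchain, low-granule cells they were 0.51 for B-lineage factors, 0.77 for apoptosis, 0.15 for S phase, 0.048 for interferon response, -0.24 for Xbp1, -1.56 for Slpi, -1.04 for Neat1, 0.055 for Ebf1 and 0.14 for Hmgb1. TMM scaling gave 0.13 for apoptosis, 0.066 for interferon response and 0.24 for glycolysis. A minimum of 200 UMIs per gene gave 0.21 for apoptosis and 0.26 for MHC class II. The groups by Dntt and division were taken here over all gated cells, with Jchain-high and granule-rich cells among them. In Dntt-positive cells apoptosis was 0.82, MHC class II 0.60, S100a9 -2.84, S100a8 -3.82, Retnlg -3.02 and Kctd12 -0.74. Retnlg was -2.50 in dividing cells without Dntt and -3.66 after doublet removal. In the remaining cells Ccl5 was -4.58, Slpi -0.48, Ly6a -0.75 and Ly6d -0.13.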

Other observations

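Vpreb3 was counted in the IgA-bearing Jchain-high cells of both libraries, most of which lay outside the gate. In FMT-young it had 91.8 CPM (77.3 to 108) in 58 called cells with at least 100 Jchain and at least 1000 Igha UMIs, and 2.11 CPM (1.64 to 2.66) in the 1281 other Jchain-high cells. In FMT-aged the levels were 115 CPM (96.0 to 137) in 43 cells and 5.98 CPM (4.92 to 7.21) in 788. A Vpreb3 UMI was seen in 77.6% against 3.98% of cells in FMT-young, and in 69.8% against 10.5% in FMT-aged. Depth was alike, with medians of 19031.5 and 18029 UMIs in FMT-young and 20607 and 17387 in FMT-aged.

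Vpreb1 and Igll1, the other markers of the gate, were not counted with it. Both were at 0 UMIs in the 58 Igha-high cells of FMT-young, and at 4 and 1 UMIs in the 43 of FMT-aged. Ccr10, a homing receptor of IgA plasma cells, had 48.2 CPM against 1.26 in FMT-young and 47.2 against 2.77 in FMT-aged. The Igha limit was set after the values were seen, and 3 and 1 Jchain-high cells had at least 30 but under 300 Igha UMIs. The kappa variable gene Igkv1-117 led the kappa counts of 1022 of 1339 Jchain-high cells of FMT-young (76.3%) and of 4 of 831 in FMT-aged. Inside the gate it led in 2 of 13 and 0 of 9.

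The 26 and 41 low-Jchain, low-granule cells that failed the gate on Ms4a1 or Ighd alone carried precursor genes as well. Vpreb1 was seen in 6 of 26 cells of FMT-young at 274 CPM and in 13 of 41 cells of FMT-aged at 1061 CPM. Dntt was seen in 4 and 8 of these cells, with 9 and 100 UMIs. Pax5 was seen in 16 and 31, at 235 and 357 CPM.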
